A study of Mus musculus with 16 samples.

Results

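The response of unr -/- embryonic stem (ES) cells to gamma irradiation was measured 2 h after the dose, as the difference between 3 arrays of irradiated cells and 3 arrays of growing cells of the same genotype, chosen by their titles. These 6 arrays are 6 of the 16 in the series. The labels give the genotype as unr -/- (KO below) or unr +/+ (WT below), a mixed 129 and C57Bl/6 background that both share, and 8 Gy as the dose of the samples at 2 h. The lines of both genotypes were derived from blastocysts of a heterozygous intercross, and the number of lines behind the arrays was not given in the sources used here. All groups grew with LIF on mitomycin-treated mouse fibroblasts and were kept for 1 h on gelatin before lysis to take the fibroblasts away. The WT arrays used here are 3 of growing and 3 of 2 h cells, and the later KO group is 2 arrays at 24 h, whose dose was likewise not stated there. Growing cells were the only untreated reference, so time in culture and handling cannot be told apart from irradiation. The labels number the samples as experiments without saying that they were separate cultures, so p-values measure only how far these arrays spread, and that spread may be technical.

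Ionising radiation breaks DNA, and the kinases that sense the breaks stabilise the transcription factor p53, which then induces genes that stop the cell cycle, slow growth, repair DNA or start apoptosis, and also induces Mdm2, the ubiquitin ligase that degrades p53. Mouse ES cells have a short G1 phase and show little arrest in it after irradiation. The protein unr is an RNA-binding protein with cold-shock domains that acts on the translation and stability of messenger RNAs. The inactivated gene itself is not analysed here, so the labels of genotype were used without a check.

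The promoters of genes that rose in KO cells are shown first, because p53 binds DNA through pairs of a short palindromic half-site. RefSeq promoter windows (GRCm38.p6) of 300 bases around the annotated start were matched by symbol, and 13 of the 14 genes that rose had one. The p53 half-site, searched by its consensus of 10 bases on both strands, lay in a window of 5 of these genes, Cdkn1a, Mdm2, Polk, Ddit4l and Nodal. Of all genes with a window, 9.55% had this motif, so that it is common by itself. Only exact matches to the consensus were counted, and Cdkn1a and Polk had 2 windows each, 1 of them with this motif. A pair of half-sites at most 13 bases apart occurred in 0.0731% of the 32851 windows, and among the genes that rose in Cdkn1a alone. The cyclic AMP response element TGACGTCA, found in 1.79% of windows, lay in those of Btg2 and Plk2. Stretches around the motifs follow, each 5′ to 3′ along the strand of the gene, with the motif in capitals.
Cdkn1a, chr17:29090861-29090982, plus strand: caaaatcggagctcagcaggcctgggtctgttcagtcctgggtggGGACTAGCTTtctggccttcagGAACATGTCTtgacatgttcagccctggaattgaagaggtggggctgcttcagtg
Mdm2, chr10:117710890-117710989, minus strand: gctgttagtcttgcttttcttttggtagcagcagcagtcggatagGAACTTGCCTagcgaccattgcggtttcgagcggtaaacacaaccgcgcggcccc
Polk, chr13:96519364-96519437, minus strand: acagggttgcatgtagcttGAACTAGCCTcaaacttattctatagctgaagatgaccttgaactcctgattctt
Btg2, chr1:134079269-134079366, minus strand: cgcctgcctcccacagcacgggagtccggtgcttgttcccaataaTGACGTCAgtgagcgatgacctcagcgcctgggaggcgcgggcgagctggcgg
Plk2, chr13:110394937-110395034, plus strand: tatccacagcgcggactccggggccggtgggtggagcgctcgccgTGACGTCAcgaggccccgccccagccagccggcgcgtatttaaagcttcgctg
A match is a description of these letters and shows no binding.

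Irradiated KO cells showed rises and no fall that passed the test. Of 17736 probe sets tested, 19 were higher at 2 h (0.107%) and 0 were lower (0%) by limma with Benjamini-Hochberg adjustment at 0.05. The 19 probe sets report 14 genes, of which 13 rose through the brightest probe set of the gene (0.127% of 10252 genes). They are the cell-cycle brakes Cdkn1a, Btg2 and Plk2, the p53 antagonist Mdm2, the apoptosis gene Bbc3, the metabolic regulators Lpin1, Ddit4, Ddit4l and Sesn2, the DNA polymerase gene Polk, and Fosl1, Nodal and Neurod1. Rap2a, a small GTPase, was called through a dimmer probe set alone. For 15 of the 19 probe sets the rise was at least 2-fold on the log2(intensity + 16) scale used for all differences here, which understates the change of dim genes. On each of the 19, all irradiated arrays lay above all growing arrays, which held for 10.1% of all probe sets tested.

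At an unadjusted p under 0.05, 1020 probe sets were higher (5.75%) and 395 lower (2.23%), together 7.98%, against 887 probe sets in both directions expected by chance. Over all probe sets tested, the difference varied with brightness. The median log2 difference was 0.13 in the dimmest of 3 equal parts of the probe sets, 0.04 in the middle part and -0.03 in the brightest part. The array medians of intensity moved in the same way, from 26.7, 30.4 and 28.7 in growing cells to 35.01, 31.8 and 29.5 at 2 h, with overlap between the groups, and the part of this shift in the unadjusted counts was not tested. Under quantile normalization the median over all probe sets was -0.01 in place of 0.03, and 18 probe sets were called higher. The KO arrays correlated with each other at 0.977 to 0.987, and the 18S rRNA control was at 50.7 to 93.9 except for KO 2 h replicate 2, at 2942. Without the arrays of high 18S signal 14 probe sets were higher, and 13 of them were among the 19. Without growing replicate 1, 11 were higher, all of them among the 19.

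**Figure D1:**
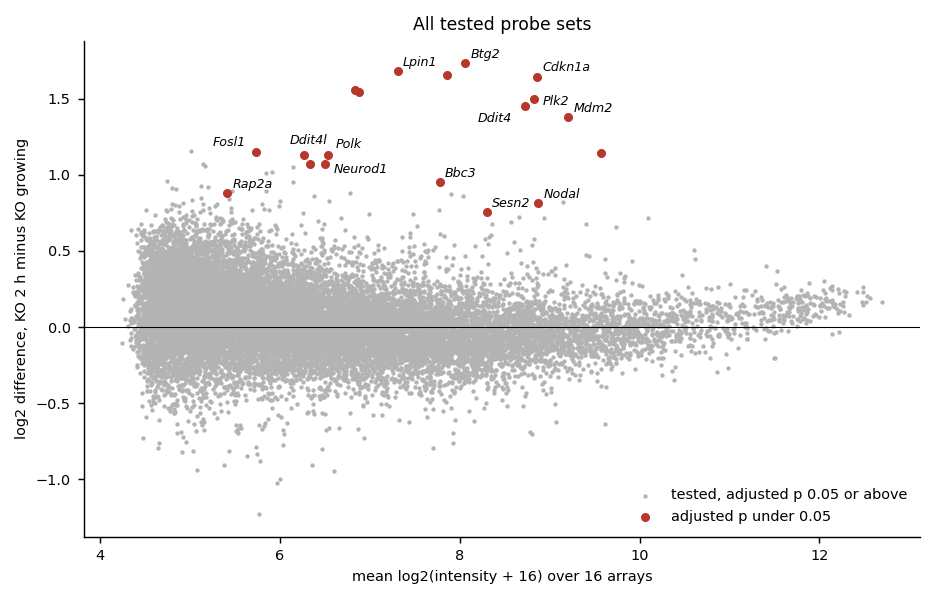
Each point is 1 tested probe set, with its mean log2(intensity + 16) over 16 arrays on the horizontal axis and the log2 difference between KO cells at 2 h and growing KO cells on the vertical axis. The 19 probe sets with an adjusted p under 0.05 (red, each gene named at its largest difference) all lie above 0, and the cloud of other probe sets widens and sits slightly above 0 at the dim end.

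The cell-cycle brakes gave the largest rises together with Lpin1. Btg2, an antiproliferative protein that recruits a deadenylase to messenger RNAs, was at intensities of 93.7, 86.4 and 132 on the growing arrays (replicates 1, 2 and 3) and 336, 454 and 352 at 2 h. The lowest irradiated array thus stood more than 2-fold above the highest growing one. The log2 difference was 1.73 ± 0.17 (SE, adjusted p = 5.29e-05, limma), and the other Btg2 probe set gave 1.66 ± 0.18 (adjusted p = 7.98e-05, limma). Cdkn1a, which encodes the cyclin-dependent kinase inhibitor p21, was at 203, 174 and 185 in growing cells and 543, 604 and 721 at 2 h. The 3 growing values differed little from each other, and no array of the groups overlapped. The log2 difference was 1.64 ± 0.22 (adjusted p = 0.00118, limma). Its dimmer probe set went from 42.2, 50.8 and 31.4 to 179, 114 and 164, a difference of 1.54 ± 0.22. Plk2, a polo-like kinase induced by stress and p53, was at 224, 203 and 247 in growing cells and 526, 774 and 707 at 2 h. This is a difference of 1.50 ± 0.15 (adjusted p = 5.29e-05, limma).

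These 3 were the only genes of the p53-induced brake list to pass the test, of 16 tested. That list also holds Ccne2 (0.26) and Cdc25c (-0.21), which are listed with the G1/S and the G2/M genes as well. Btg1, a relative of Btg2, was at 194, 209 and 165 in growing cells and 282, 306 and 298 at 2 h, groups that did not overlap, yet its difference of 0.61 ± 0.16 had an adjusted p of 0.273 (limma). The median difference of the 16 listed genes was 0.08, near the 0.04 of all 10252 genes, and 8 of the 16 lay below 0. The groups did not overlap for 7 that were higher and 2 that were lower, where this held for 10.7% and 5.8% of all genes.

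Mdm2 rose on both of its probe sets. The brighter one was at 424, 413 and 482 in growing cells and 836, 1212 and 953 at 2 h (1.14 ± 0.17, adjusted p = 0.00371, limma). Replicate 2 was the highest irradiated array. A second probe set read 341, 320 and 328 in growing cells against 789, 981 and 883 at 2 h (1.38 ± 0.15, adjusted p = 0.000124, limma), with no overlap on either. Of the 11 feedback and sensing genes tested, Mdm2 alone was called, and 7 had an unadjusted p under 0.05, all higher, where 6.26% of all genes did. Trp53inp1, a p53-induced stress protein, stood next to the threshold at 383, 299 and 325 in growing cells and 534, 711 and 578 at 2 h (0.82 ± 0.16, adjusted p = 0.0643, limma). Ccng1, a cyclin G that works with Mdm2, was at 547, 621.5 and 531 against 746, 1022 and 951 (0.65 ± 0.13, adjusted p = 0.0704, limma). Phlda3, an inhibitor of Akt, gave 0.72 ± 0.16 (adjusted p = 0.104, limma). In a fit of only the 6 KO arrays Trp53inp1 and Phlda3 were called (adjusted p = 0.0364 for both, limma), as was Ccng1 without replicate 1 at 2 h (adjusted p = 0.0268, limma). None of the growing arrays of these 3 genes reached an irradiated one. The groups did not overlap for 7 of the 11 genes, all higher, where 10.7% of all genes were higher without overlap. The median of the list was 0.43.

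Among the p53-induced death genes Bbc3 was called. It encodes Puma, a BH3-only protein that frees the mitochondrial death pathway, and was at 123, 127 and 168 in growing cells and 285, 264 and 297 at 2 h. The irradiated arrays were tight and the growing ones were led by replicate 3. The difference was 0.95 ± 0.16 (adjusted p = 0.00973, limma), and the call was lost in 4 of the 6 fits that left out 1 array (adjusted p up to 0.102). Pmaip1, which encodes the related protein Noxa, was at 208, 243 and 188 against 257, 371 and 248, a difference of 0.41 ± 0.21 that did not pass (adjusted p = 0.642, limma). Apaf1, the scaffold of the apoptosome, was at 65.4, 60.3 and 48.3 against 85.4, 126 and 88.8 (0.64 ± 0.20, adjusted p = 0.427, limma). Pidd1, a death-domain protein, was at 57.6, 75.1 and 82.7 against 102, 115 and 115 (0.54 ± 0.14, adjusted p = 0.273, limma). Of the 13 death genes tested, 11 were above 0 with a median of 0.27, and Fas was below the filter on dim probe sets.

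Among the called probe sets the largest ratio of group means was that of a metabolic gene. Lpin1, a phosphatidate phosphatase that also acts as a transcriptional coactivator, was at 55.9, 56.3 and 54.1 in growing cells and 190, 252 and 201 at 2 h. The ratio of mean intensities was 3.87, and the difference was 1.68 ± 0.17 (adjusted p = 5.36e-05, limma). Ddit4, an inhibitor of the growth kinase complex mTORC1 also known as Redd1, was at 153, 247 and 153 in growing cells and 443, 576 and 546 at 2 h. Growing replicate 2 stood apart from the other growing arrays and still lay below the irradiated ones. The difference was 1.45 ± 0.18 (adjusted p = 0.000562, limma). Its paralogue Ddit4l was dim in growing cells, at 26.6, 29.6 and 33.6, and read 49.4, 113 and 89.6 at 2 h, where replicate 1 was the lowest. This gave 1.07 ± 0.20 (adjusted p = 0.0468, limma), a call lost in 5 of the 6 fits that left out 1 array (adjusted p up to 0.269). A second Ddit4l probe set gave 1.13 ± 0.17 (adjusted p = 0.00494, limma). Sesn2, a stress-induced leucine sensor upstream of mTORC1, was at 231, 252 and 257 against 412, 438 and 432 (0.76 ± 0.14, adjusted p = 0.0289, limma). Each Sesn2 group was narrow, but the call was lost when any of the 6 arrays was left out, with adjusted p between 0.0821 and 0.227 (limma). A second Sesn2 probe set was not called in the main fit. In a fit of only the 6 KO arrays it was called, at 0.86 (adjusted p = 0.0159, limma).

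Polk, a DNA polymerase of the Y family that copies past damaged bases, was the repair gene that rose. It was at 35.6, 29.8 and 42.4 in growing cells and 94.9, 95.02 and 101 at 2 h, the irradiated arrays lying close together. The difference was 1.13 ± 0.15 (adjusted p = 0.000763, limma). A dimmer Polk probe set read 29.6, 30.1 and 38.0 against 52.9, 49.6 and 34.3, so that the groups overlapped, and its 0.33 ± 0.18 did not pass (adjusted p = 0.677, limma). The other 9 repair and nucleotide genes tested were not called. Ercc5, an endonuclease of nucleotide excision repair, was at 57.4, 54.5 and 55.3 against 87.5, 78.0 and 80.9 (0.45 ± 0.16, adjusted p = 0.469, limma). Pcna, the sliding clamp of replication, differed by 0.02 ± 0.13 and Gadd45a by -0.39 ± 0.19.

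The 3 remaining genes stand outside the p53 lists, as does Ddit4l. Fosl1, the AP-1 subunit Fra-1, was near the dim end at 15.3, 29.6 and 16.1 in growing cells and 66.3, 60.5 and 63.99 at 2 h (1.15 ± 0.19, adjusted p = 0.0119, limma). The irradiated values varied less than the growing ones. The call was lost in 5 of the 6 fits that left out 1 array, with adjusted p up to 0.119, and without the second hybridisation day (adjusted p = 0.397, limma). A second Fosl1 probe set at 1.71 to 11.8 in growing cells gave 0.20 ± 0.25 (adjusted p = 0.90, limma). Nodal, a ligand of the TGF-beta family that patterns the early embryo, was at 283, 316 and 357 against 569, 558 and 579 (0.81 ± 0.12, adjusted p = 0.00394, limma). The Nodal call was lost without growing replicate 1 (adjusted p = 0.061, limma) and without the second hybridisation day (adjusted p = 0.108, limma). Its second probe set was also higher on every irradiated array, at 0.75 ± 0.17, and did not pass (adjusted p = 0.142, limma). Neurod1, a transcription factor of neurons and endocrine cells, was at 28.3, 35.5 and 30.05 against 60.2, 125 and 74.2 (1.07 ± 0.20, adjusted p = 0.0468, limma). Replicate 2 at 2 h supplied the highest Neurod1 value. The call was lost in 5 of the 6 fits that left out 1 array, with adjusted p up to 0.266 (limma), and held without replicate 1 at 2 h. A second Neurod1 probe set was not called in the main fit. With the replicate number as a block it was called, at 1.05 (adjusted p = 0.0432, limma). The dim Rap2a probe set read 10.51, 20.02 and 12.6 against 38.7, 36.9 and 42.7 (0.88 ± 0.16, adjusted p = 0.0293, limma). Its brighter probe set read 48.1, 43.0 and 42.0 against 73.5, 80.2 and 69.7 and was not called (0.58 ± 0.13, adjusted p = 0.113, limma).

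**Figure D2:**
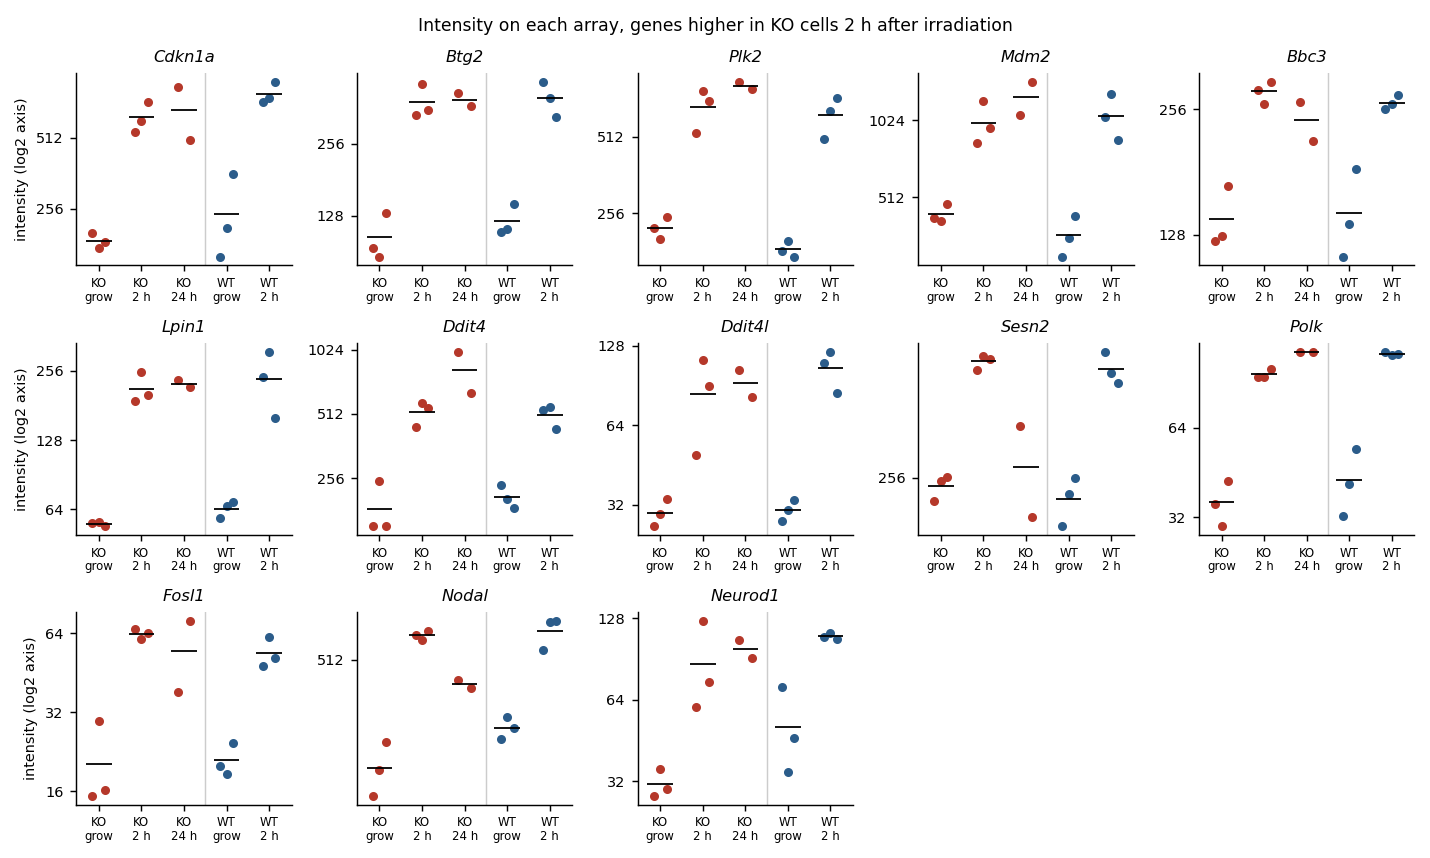
Each point is the intensity on 1 array (log2 axis, a scale of its own for each gene) of the brightest probe set of the 13 genes that rose, for KO cells (red: growing, 2 h, 24 h) and WT cells (blue: growing, 2 h), with bars at group means. In each panel the 3 KO arrays at 2 h lie above the 3 growing KO arrays, and the 24 h arrays of Sesn2 lie at 322 and 216.

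Hybridisation runs differed between some of the arrays. Growing and 2 h arrays of replicate 2 were in the same run, as were those of replicate 3, the only KO pair of the second hybridisation day. The median difference of the 19 probe sets was 1.50 within the run of replicate 2 and 1.32 within that of replicate 3, where the positive sign of each was already given by the absence of overlap on which they are described above. Replicate 1 had its arrays in different runs and gives no such value. Without the second day 11 probe sets were called, all of them among the 19, and Ddit4 was among those lost (adjusted p = 0.0644, limma).

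Taken over all 6 p53 lists, 106 genes were listed and 86 were tested. Of these, 9 were called higher and 0 lower, against 0.127% of all genes called higher. The 9 are Mdm2, Btg2, Cdkn1a, Plk2, Bbc3, Lpin1, Ddit4, Sesn2 and Polk. The median over the 86 was 0.24, where that of all genes was 0.04, and 65 of the 86 lay above 0, where 57.3% of all genes did. The groups did not overlap for 37 that were higher and 4 that were lower, where this held for 10.7% and 5.8% of all genes. Among 29 other p53 targets 0 passed and the median was 0.29. At an unadjusted p under 0.05, 8 were higher and 1 lower, where 6.26% and 2.39% of all genes were. Tob1, an antiproliferative relative of the Btg genes, was at 55.8, 69.1 and 37.1 against 94.7, 130 and 96.7 (0.83 ± 0.18, adjusted p = 0.090, limma). Close to the threshold and outside these lists, named after their values were seen, were Susd6 (0.74 ± 0.14, adjusted p = 0.0505, limma) and Scn3b, a sodium channel subunit (0.90 ± 0.18, adjusted p = 0.0704, limma).

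The same contrast in WT cells called 25 probe sets higher (0.141%) and 1 lower (0.00564%), or 33 and 3 with the replicate number as a block. The genotypes share no arrays in these contrasts but share the estimate of spread. The overlap was 15 probe sets, which is 78.9% of those called in KO and 60% of those called in WT. All 19 KO probe sets were above 0 in WT, and all 25 WT probe sets were above 0 in KO. The median difference over the 19 was 1.15 in KO and 1.27 in WT. Of the 13 KO genes all but Fosl1, Nodal and Neurod1 were also called in WT through the same probe set.

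For the brakes, the KO and WT differences were 1.73 and 1.58 for Btg2, 1.64 and 1.69 for Cdkn1a, and 1.50 and 1.66 for Plk2. They were 1.68 and 1.60 for Lpin1, 1.45 and 1.21 for Ddit4, 0.95 and 0.83 for Bbc3, and 1.13 and 1.16 for Polk. Growing WT cells spread more for Cdkn1a, at 161, 213 and 359, than growing KO cells did. The irradiated WT arrays of Cdkn1a read 721, 753 and 879, against 543 to 721 in KO. Both Mdm2 probe sets rose in both genotypes, the brighter at 1.14 in KO and 1.51 in WT and the other at 1.38 in KO and 1.06 in WT. The difference between the genotypes was not called for either (adjusted p = 0.65 for the brighter, limma).

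Called in KO and not in WT were Fosl1, Nodal and Neurod1. Their WT differences were 0.91 ± 0.19 (adjusted p = 0.0678, limma), 0.59 ± 0.12 (adjusted p = 0.0636, limma) and 0.95 ± 0.20 (adjusted p = 0.0714, limma). The difference between the genotypes was 0.24 for Fosl1 (95% interval -0.33 to 0.81), 0.22 for Nodal (-0.14 to 0.58) and 0.12 for Neurod1 (-0.48 to 0.72). Each interval includes 0 and is wider than the difference it surrounds. Nodal read 283 to 357 on growing KO arrays and 361.5 to 399 on growing WT arrays, ranges that lay close to each other. The irradiated arrays read 558 to 579 in KO and 533 to 605 in WT. A difference between the growing genotypes was not tested. The 7 genes called in WT alone were Plxnb2, Slc19a2, Trp53inp1, Nr3c1, Susd6, Pisd-ps3 and Man2b1. In KO, Susd6 passed in 5 of 17 alternative fits, the brighter probe set of Trp53inp1 in 2, and the dim probe set of Man2b1 with the hybridisation run as a block (adjusted p = 0.0358, limma). In KO the probe sets called in WT gave 0.22 ± 0.20 for Plxnb2, a semaphorin receptor, 0.56 ± 0.12 for the thiamine transporter Slc19a2, 0.69 ± 0.17 for the glucocorticoid receptor Nr3c1 and 1.02 ± 0.21 for a dim probe set of the lysosomal mannosidase Man2b1. The KO minus WT difference was -0.12 for Susd6 (95% interval -0.54 to 0.31), -0.34 for Slc19a2 (-0.70 to 0.02), -0.37 for Nr3c1 (-0.88 to 0.14), -0.28 for Pisd-ps3 (-0.85 to 0.29) and -0.47 for the dimmer Trp53inp1 probe set (-1.05 to 0.10). It was -0.81 for Plxnb2 (-1.396 to -0.22, adjusted p = 0.34, limma) and -0.76 for Man2b1 (-1.396 to -0.13, adjusted p = 0.42, limma), intervals below 0 for differences that did not pass the adjusted test. Genes called in 1 genotype alone were chosen by that call, which by itself pulls the KO minus WT difference toward that genotype. The signs of these differences are therefore not read as a genotype effect. The single WT fall was Kif18a, a mitotic kinesin, at -0.94 ± 0.19 (adjusted p = 0.049, limma). In KO, Kif18a was at 49.7, 58.7 and 75.3 in growing cells and 34.3, 40.8 and 45.3 at 2 h, a difference of -0.45 ± 0.18 that did not pass (adjusted p = 0.542, limma).

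**Figure D3:**
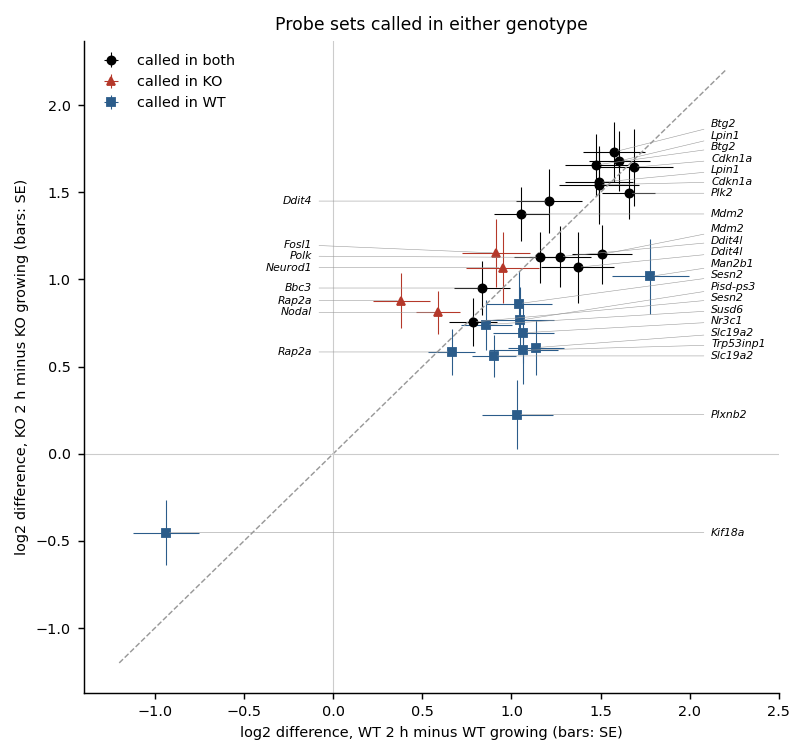
Each point is a probe set called in KO (19), in WT (26) or in both (15), with the log2 difference at 2 h in WT on the horizontal axis, that in KO on the vertical axis, bars of 1 SE and a dashed line of equal differences. All of them lie in the same direction in both genotypes, with Rap2a and Plxnb2 among the farthest from the line.

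The difference between the genotypes was tested directly. The genotype-by-irradiation interaction called 0 of 17736 probe sets by limma (0%), with a lowest adjusted p of 0.182, and 1763 had an unadjusted p under 0.05 (9.94%). Over the 19 KO probe sets the interaction lay between -0.36 and 0.50, being positive for 12 and negative for 7, and the lowest adjusted p was 0.473 (limma). These 19 were chosen by their KO difference, which pulls the interaction upward, so the split is not read as a genotype effect. For Cdkn1a the interaction was -0.04 (95% interval -0.70 to 0.62), for Btg2 0.16 (-0.35 to 0.67) and for Plk2 -0.16 (-0.60 to 0.28). For Bbc3 it was 0.12 (-0.34 to 0.58) and for Polk -0.03 (-0.47 to 0.40). Intervals of this width leave room for differences that these arrays cannot show. The unadjusted interaction counts were highest among dim probe sets, at 978 of 5912 in the dimmest part against 272 of 5912 in the brightest. In the dimmest part the median difference was 0.13 in KO and -0.12 in WT. Among the 20 lowest interaction p-values, 16 were in the dimmest part and 20 had opposite signs in the genotypes. Choice by that p-value itself favours opposite signs, so these signs are not read as a genotype effect. Among the 20, Zbtb16, a zinc-finger transcription factor named here after its values were seen, was at 3.65, 10.1 and 6.67 in growing KO cells and 36.4, 39.2 and 21.3 at 2 h (1.07 ± 0.23, adjusted p = 0.090, limma). Its WT difference was -0.81, and a fit of only the 12 arrays of growing and 2 h cells called its interaction (1.88, adjusted p = 0.0351, limma).

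Levels at 24 h in KO cells are given beside those at 2 h. The 24 h comparison shares the growing arrays with the 2 h one, so the differences are not independent, and it called 5.01% of probe sets higher and 3.02% lower. Ddit4 went from 1.45 at 2 h to 2.07 at 24 h and Plk2 from 1.50 to 1.78. Ccng1, not called at 2 h, was at 1428 and 1282 on the 24 h arrays, a difference of 1.24 (adjusted p = 0.00017, limma). Pmaip1 was at 547 and 343 there, with a difference of 0.98 (adjusted p = 0.014, limma), and Apaf1 at 177 and 143, with 1.25 (adjusted p = 0.0025, limma). Sesn2 was at 322 and 216 on the 24 h arrays, a difference of 0.09 from growing cells (adjusted p = 0.75, limma). Nodal was at 468 and 453, between the growing and the 2 h levels, and Bbc3 at 267 and 215. Of the 19 probe sets called at 2 h, 18 were also called higher at 24 h, and 13 had a larger difference there. The difference between the 2 h and 24 h responses was not tested.

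G2/M and mitosis genes were low as a group without a call for any member. Of 51 listed, 46 were tested and 0 were called in either direction by limma, with 0 higher and 12 lower at an unadjusted p under 0.05, where 2.39% of all genes were lower. The median difference was -0.14, and 37 of 46 lay below 0, where 42.7% of all genes did. Genes of this list are bright, and among the brightest of 3 equal parts of the probe sets 57.8% of genes lay below 0 and 4.22% were lower at an unadjusted p under 0.05. Within the run of replicate 2 the list's median was -0.13, and within that of replicate 3 it was -0.15. The mean log2 level of the 46 genes was 8.20 to 8.30 on growing arrays and 8.05 to 8.13 at 2 h. In WT the median was -0.03. Aurka, a kinase that builds spindle poles, was at 594, 494 and 676 in growing cells and 455, 326 and 452 at 2 h (-0.50 ± 0.16, adjusted p = 0.45, limma). Prc1, which bundles midzone microtubules, was at 319, 263 and 312 against 229, 185 and 249 (-0.41 ± 0.15). Mki67, the proliferation antigen Ki-67, was at 311, 273 and 261 against 231, 203 and 236 (-0.31 ± 0.11). For these 3 genes the groups did not overlap. Over the list this held for 0 that were higher and 14 that were lower, against 10.7% and 5.8% of all genes. Bright members such as Cdc20 (-0.04 ± 0.13), Ube2c (-0.05 ± 0.15) and Top2a (-0.10 ± 0.12), lay nearer to 0 than the list's median, and Pttg1, also bright, had its highest value (0.20 ± 0.20). The 46 tested genes of G1/S and DNA replication had a median of -0.02. Of them 2 were higher and 0 lower at an unadjusted p under 0.05, where 6.26% and 2.39% of all genes were.

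**Figure D4:**
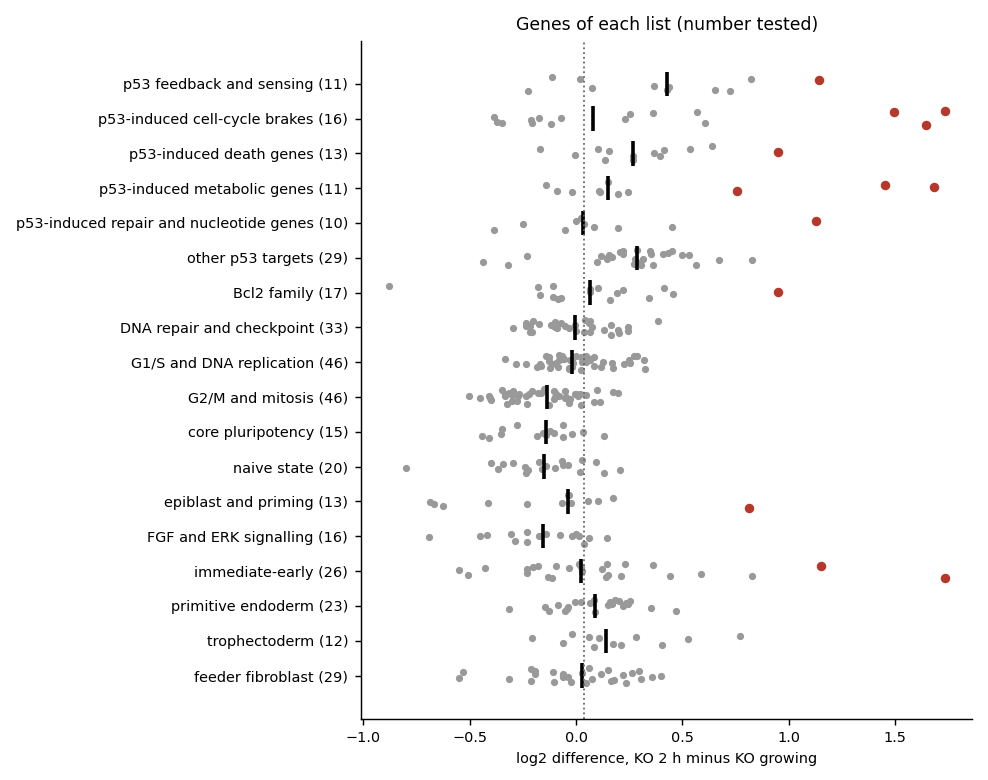
Each point is a tested gene of a list (number tested in brackets), at its log2 difference between KO cells at 2 h and growing KO cells, with red for an adjusted p under 0.05, black bars for list medians and a dotted line for the median of all genes at 0.04. Among the lists plotted, the red genes sit in the p53, immediate-early, Bcl2 and epiblast lists, some of which share members, and the G2/M, pluripotency and FGF medians lie between -0.16 and -0.14.

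The cells carried the markers of the ES cell label. Pou5f1, the core factor Oct4, was at 1303, 1292 and 1543 in growing cells and 1265, 1353 and 1625 at 2 h, a difference of 0.03 ± 0.12. Sox2, its partner, was at 708, 828 and 686.2 against 729, 696 and 567 (-0.16 ± 0.15). Nanog was at 600, 512 and 558 against 503, 378 and 426, groups that did not overlap, and its -0.35 ± 0.17 did not pass (adjusted p = 0.626, limma). Of the 15 core pluripotency genes, all tested, 0 were called by limma, 4 were lower and 0 higher at an unadjusted p under 0.05, and 13 lay below 0 with a median of -0.14. Over all genes 2.39% were lower and 42.7% lay below 0. The groups did not overlap for 5 of the 15, all lower, where 5.8% of all genes were lower without overlap. This list is bright, at a mean log2 level of 9.46 to 9.59 on growing arrays, and in the brightest part of the probe sets 4.22% of genes were lower and 57.8% lay below 0. The 4 were Lin28a (-0.44 ± 0.18), an inhibitor of let-7 processing, Rif1 (-0.41 ± 0.17), Sall4 (-0.35 ± 0.13) and Nanog. Of 20 naive-state genes tested, 0 were called and 3 were lower at an unadjusted p under 0.05, with a median of -0.15. Lifr, the receptor for the LIF in the medium, was at 116, 88.0 and 89.9 against 34.1, 61.1 and 55.1 (-0.80 ± 0.26, adjusted p = 0.45, limma), while 2 dimmer Lifr probe sets gave 0.02 and 0.11. Zfp42, also known as Rex1, differed by -0.40 ± 0.21 and Klf4 by 0.03 ± 0.20. WT medians were -0.03 for core pluripotency and -0.11 for the naive state.

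Nodal was the called member of 13 epiblast and priming genes, whose median was -0.04. Its inhibitor Lefty1 was at 668, 302 and 503 in growing cells and 294, 251 and 310 at 2 h, groups that overlapped, with a difference of -0.69 ± 0.30 (adjusted p = 0.588, limma). Otx2, a homeobox factor of the primed epiblast, read 40.4, 43.1 and 22.1 against 10.4, 21.2 and 19.2 (-0.63 ± 0.21), and Sox3 gave -0.67 ± 0.24. The 16 FGF and ERK signalling genes tested had a median of -0.16. Of them 0 were called and 2 were lower at an unadjusted p under 0.05, where 2.39% of all genes were lower. Dusp6, a phosphatase that is a feedback target of ERK, was at 253, 278 and 308 against 148, 185 and 168 (-0.69 ± 0.15, adjusted p = 0.0815, limma). Dusp6 was among the falls nearest to the threshold, named after their values were seen, together with Prickle1, a planar polarity gene, at 24.7, 25.1 and 29.0 against 2.57, 6.75 and 9.22 (-0.94 ± 0.19, adjusted p = 0.0775, limma). Another was Mycn, a Myc family factor, at 440, 606 and 407 against 287, 330 and 248 (-0.70 ± 0.15, adjusted p = 0.090, limma). A second Mycn probe set gave -0.94 ± 0.21 and the dimmest one, at 2.93 to 7.29 in growing cells, gave 0.23 ± 0.23. The 2 brighter Mycn probe sets were called lower with the hybridisation run as a block (adjusted p = 0.00681 and 0.0341, limma), while Prickle1 was not.

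Immediate-early genes lay on both sides of 0. Of 26 tested, Btg2 and Fosl1 were called higher and 0 were called lower. At an unadjusted p under 0.05, 5 were higher (19.2%) and 2 lower (7.69%), where 6.26% and 2.39% of all genes were. The groups did not overlap for 6 that were higher and 4 that were lower, where this held for 10.7% and 5.8% of all genes. The median was 0.02, and 0.197 without growing replicate 2. Atf3, a stress-induced bZIP factor, was at 32.2, 33.9 and 32.9 in growing cells and 87.7, 56.7 and 71.3 at 2 h, without overlap (0.83 ± 0.33, adjusted p = 0.528, limma). Its WT difference was 0.48. Fos differed by 0.36 ± 0.20, Jun by 0.14 ± 0.18 and Egr1 by 0.01 ± 0.24. Myc was at 174, 189 and 225 against 115, 140 and 144 (-0.51 ± 0.20, adjusted p = 0.532, limma). The 26 genes of the integrated stress response had a median of 0.03, with Sesn2 as the called member, and the 33 tested genes of DNA repair and checkpoint had 0 called by limma, 1 higher at an unadjusted p under 0.05 and a median of -0.01. Of 17 Bcl2 family genes Bbc3 was called, and the median was 0.07. Mcl1, the bright antiapoptotic member, differed by 0.16 ± 0.13.

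Markers of other cell types showed no call. The feeder fibroblast list had 29 tested genes with 0 called by limma, 0 higher and 1 lower at an unadjusted p under 0.05, and a mean log2 level of 6.16 to 6.71 on growing arrays and 6.19 to 6.52 at 2 h, ranges that overlap. Its defining genes were measurable, Acta2 at 343, 416 and 384 against 297, 364 and 331. Their differences were below 0 for Acta2 (-0.19), Col1a1 (-0.10) and Postn (-0.04). They were above 0 for Col1a2 (0.18), Col3a1 (0.30) and Thy1 (0.17), as for 15 of the 29 genes tested. The primitive endoderm list (23 tested, 1 higher at an unadjusted p under 0.05) had a mean level of 6.10 to 6.27 against 6.14 to 6.34 and a median difference of 0.09. Gata6 differed by 0.25 ± 0.22, Gata4 by 0.23 ± 0.21, Sox17 by 0.20 ± 0.24 and Dab2 by 0.18 ± 0.23, with groups that overlapped for each. Gata6, Gata4 and Sox17 were in the dimmest part of the probe sets, whose median was 0.13. Of the 23 genes 15 lay above 0 and 8 below, among the latter Sox7 (-0.04) and the brighter Lamc1 (-0.32). The trophectoderm list (12 tested, 3 higher at an unadjusted p under 0.05) had a mean level of 5.31 to 5.76 against 5.52 to 5.92 and a median difference of 0.14, where 6.26% of all genes were higher and the median of the dimmest part of the probe sets was 0.13. In bulk RNA, fewer cells of a type and less RNA per cell cannot be told apart. The remaining lists had no called gene by limma. Their medians were 0.06 for 14 heat shock genes, -0.07 for 22 interferon and NF-kB genes, -0.07 for 21 ribosome biogenesis genes, -0.04 for 15 sterol synthesis genes, 0.03 for 8 histone genes, 0.14 for 11 mesoderm genes and 0.10 for 7 neuroectoderm genes, each with at most 2 higher and 1 lower at an unadjusted p under 0.05. Of these medians, all but that of the interferon and NF-kB genes changed sign in at least 1 alternative fit, the mesoderm one to -0.107 with the hybridisation run as a block and the neuroectoderm one to -0.178 with a filter at the 50th percentile.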

How the data were processed

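Per the labels' protocols, total RNA was extracted with Trizol and 5 µg were amplified in 1 round to biotin-labelled targets. The deposited values are intensities, 1 per probe set and array, linear and above 0. The mean after trimming 2% at each end was the same on every array, so the authors had scaled the arrays to 1 constant, and genes were not centred. The summary software was not given in the sources used here. Of 22690 probe sets, 64 controls were left out, and the platform annotation gave 1 symbol for 20380, several for 691 and none for 1555. The log2(intensity + 16) values went into limma 3.58.1 (R 4.3.3) with 6 group means over 16 arrays, eBayes with an intensity trend (10 residual, 8.55 prior degrees of freedom), two-sided tests, Benjamini-Hochberg adjustment. Probe sets with a group mean above the 30th percentile (4.80 on the log2 scale) were tested. Each gene was read from its brightest tested probe set over 16 arrays. Precision is limited by 3 arrays per group.

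The 26 gene lists and the genes described were chosen with earlier results of these data known, and lists are described by counts and medians without a test. Up to 20 largest rises and falls with an adjusted p under 0.05 and no overlap were named, with a set of p53, cycle, pluripotency and endoderm genes and the 4 brightest members and passing members of each list, to which members with an unadjusted p under 0.05 were added after their values were seen. Listed genes without a named probe set are not analysed here. Hybridisation runs were read from the instrument headers. The replicate numbers were checked as pairs by the correlation of deviations from group means. Same-numbered WT arrays correlated at 0.20, 0.23 and 0.29, each pair from 1 run, although the labels state no pairing. They were paired only in the alternative fit with the replicate number as a block. The main fit, which gave the WT calls and the interaction, used no pairs. The block held all arrays, although the KO numbers were not taken as pairs. Alternatives were the pseudocount, the filter, quantile normalization, fewer arrays, run or replicate as a block, eBayes without trend and leaving out arrays.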

Additional observations from a re-analysis of the deposited data

How the results depend on the processing

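Precision rests on 3 arrays per group. Of the KO calls, Btg2, Lpin1, Cdkn1a, Plk2, Mdm2 and Polk passed in all 17 alternative fits, Ddit4 in 16, Nodal in 15, Bbc3 in 13, Fosl1 in 10, Sesn2 in 7, Neurod1 in 5 and Ddit4l in 4, and none of these 13 changed direction. The count of 19 higher probe sets was 11 without the second hybridisation day and between 11 (without growing replicate 1) and 17 when 1 array was left out. It was 16 to 24 in the other fits apart from 14 without the arrays of high 18S signal. Lower calls numbered 2 with the run as a block and between 0 and 1 when 1 array was left out, the 1 being a Lamp2 probe set without growing replicate 2. The numbers in the labels were checked as pairs: deviations of same-numbered KO arrays correlated at -0.06, 0.28 and 0.14, and growing replicate 1 correlated best with 2 h replicate 3, so they were not used as pairs. Same-numbered WT arrays correlated at 0.20, 0.23 and 0.29. With the replicate block, 24 KO probe sets were higher and 2 lower (Mycn and Prickle1), 33 WT probe sets higher and 3 lower, and 0 interactions were called. With the 12 arrays of growing and 2 h cells the interaction called 1, Zbtb16. WT higher calls were 15 without the second day and 17 to 30 when 1 array was left out. WT lower calls were 4 with a pseudocount of 1 and with the run block, 3 without the filter and without the trend, 0 with a pseudocount of 64, quantile normalization, the 12 arrays, no second day or no high 18S arrays, and 0 to 9 when 1 array was left out. Calls gained in KO included Susd6 in 5 alternative fits, Trp53inp1, Ccng1 and the dim Man2b1 probe set in 2 each and Phlda3 in 1, the replicate block being among them for Susd6, Ccng1 and Man2b1. Signs of some single genes turned. Klf4 was -0.109 and Egr1 -0.0733 with the run as a block, and Egr1 was -0.0225 without the arrays of high 18S signal. With 1 array left out, Pou5f1 ranged from -0.0707 to 0.115, Klf4 from -0.0493 to 0.0781, Egr1 from -0.169 to 0.231, Sox17 from -0.0295 to 0.428 and Dab2 from -0.00702 to 0.334. The cause was not tested. Of 468 list medians recomputed for the 26 lists, 57 moved by more than 1 SD of the list's median over the 3 irradiated arrays, and 14 lists had medians on both sides of 0. A pseudocount of 1 gave 0.416 for p53-induced death genes and 0.110 for the Bcl2 family, and one of 64 gave 0.182 for other p53 targets, 0.0611 for mesoderm and -0.111 for FGF and ERK signalling. Quantile normalization gave -0.0549 for p53-induced repair genes, 0.00598 for heat shock and 0.0315 for mesoderm. The filter at the 50th percentile gave -0.104 for mesoderm and -0.178 for neuroectoderm. The run as a block gave -0.0292 for DNA repair, -0.0639 for immediate-early genes and -0.107 for mesoderm. Without the second day the medians were 0.107 for p53-induced repair genes, -0.0260 for the Bcl2 family, 0.161 for heat shock, 0.0665 for mesoderm, -0.100 for sterol synthesis, -0.000436 for ribosome biogenesis and -0.104 for FGF and ERK signalling. Without the arrays of high 18S signal they were 0.136 for the Bcl2 family, -0.0657 for DNA repair, -0.0824 for core pluripotency, -0.261 for epiblast genes, 0.00996 for ribosome biogenesis and -0.0901 for FGF and ERK signalling. With all probe sets of a gene they were -0.104 for mesoderm and 0.00737 for ribosome biogenesis. With 1 array left out, medians ranged from -0.00740 to 0.105 for p53-induced repair genes, -0.0124 to 0.136 for the Bcl2 family, -0.0657 to 0.0111 for DNA repair, -0.00479 to 0.197 for immediate-early genes, -0.0237 to 0.133 for heat shock, -0.0962 to -0.0100 for interferon and NF-kB genes, -0.187 to -0.0824 for core pluripotency, -0.261 to 0.00542 for epiblast genes, -0.1202 to 0.131 for mesoderm, -0.0709 to 0.0434 for sterol synthesis, -0.0599 to 0.00996 for ribosome biogenesis, -0.210 to -0.0901 for FGF and ERK signalling and -0.00690 to 0.0990 for histones. The G2/M median ranged from -0.17 to -0.11 over these alternatives.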

Other observations

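Bad, a BH3-only member of the Bcl2 family, was at 55.8, 51.5 and 55.8 on the growing KO arrays and at 12.2, 11.8 and 55.0 at 2 h, so that replicate 3 at 2 h stood with the growing arrays. Its difference of -0.88 ± 0.30 did not pass in KO (adjusted p = 0.465, limma), and the WT difference was -1.11. The probe sets of Man2b1 also read differently from each other, the bright one at 126, 122 and 118 against 159, 151 and 142 (0.27 ± 0.12) and the dim one at 34.8, 22.9 and 14.1 against 54.0, 68.6 and 67.4 (1.02 ± 0.21). Among chaperones, Hspe1, a mitochondrial cochaperonin, was at 1264, 1394 and 1200.0 in growing KO cells and 1826, 1757 and 1920 at 2 h (0.51 ± 0.13, adjusted p = 0.24, limma), while its WT difference was -0.14. The difference between the genotypes was not called for any of these 3 genes, which were named after their values were seen.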
